A study of Mus musculus with 4 samples.

Results

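The phagocyte NADPH oxidase was followed in sorted mouse macrophages through 6 genes, Cybb, Cyba, Ncf1, Ncf4, Rac2 and Hvcn1. They were taken by symbol from the 17008 genes that had a uniquely mapped read in any library, and all 6 had reads in all 4 libraries. RNA was sequenced from macrophages of C57BL/6J mice, with 1 library per group: T-ALL bone marrow, normal bone marrow, T-ALL spleen and normal spleen. T-ALL is T cell acute lymphoblastic leukaemia. The T-ALL mice had received GFP-positive leukaemia cells taken from other leukaemic mice, at 6 to 8 weeks of age and without irradiation, and their macrophages, which the submitters call leukaemia-associated macrophages, were sorted on day 21. Mice given such cells lived for 35 to 40 days. The normal libraries stand for day 0, and the same age label is given for all 4 groups. No irradiation means that the recipients kept their own marrow cells. With 1 library per group no difference has a replicate check, no p-value is given, and how many mice gave each library is not given in the sources used here.

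The oxidase makes superoxide by passing electrons from NADPH in the cytosol to oxygen inside a phagosome or outside the cell, and it is best known from neutrophils, monocytes and macrophages. Its membrane part is a pair of proteins, the catalytic chain encoded by Cybb and the small stabilising chain encoded by Cyba. At rest the organiser Ncf1 and its partner Ncf4 stay in the cytosol, and on activation they move to the membrane, where a Rac GTPase joins them. Hvcn1 is a voltage-gated proton channel that carries out protons and so offsets the charge moved by the oxidase. People who lack a chain of the membrane pair or the organiser Ncf1 have chronic granulomatous disease.

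Levels are CPM, a gene's reads scaled to the TMM-adjusted size of its library, and levels of different genes are compared only as RPKM, which also divides by gene length. The libraries held 8.98 to 9.81 M (mega) uniquely mapped reads, so that 1 read was worth 0.101 to 0.112 CPM. The size rule called a gene higher or lower if log2(CPM + 1) moved by 1 or more, which is 2-fold, and if the larger of both levels reached 10 CPM; a gene is measured in a comparison if it reached that level. A pair of values in parentheses is a 95% interval that reflects the number of reads and says nothing of how animals vary. Unique reads covered 97.6% to 99.9% of the listed length of Cybb, Cyba, Ncf1, Ncf4 and Rac2, and 87.9% to 88.5% of that of Hvcn1.

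The macrophage label was checked against marker genes, and the libraries were mixed. In the T-ALL bone marrow library the defining macrophage genes Emr1, Csf1r and Mertk were at 303.5, 947 and 54.3 CPM, against 39.5, 133 and 3.65 CPM in the normal bone marrow library. Mpo, which encodes the myeloperoxidase of neutrophil granules, was at 2531 CPM in T-ALL and 9900.0 CPM in normal bone marrow. The 8 neutrophil precursor markers summed to 3844 CPM in T-ALL marrow and 15304 CPM in normal marrow, and to 108 CPM in T-ALL spleen and 91.9 CPM in normal spleen. The 10 listed mature neutrophil markers found in the files summed to 28220.0, 35302, 195 and 618 CPM in the same order, and the defining marker Ly6g had no line in any of the 4 files, which does not show whether its reads were counted. Neutrophils and their precursors carry the same oxidase, and in such bulk libraries fewer cells of a type and less RNA per cell cannot be told apart. Sex-linked transcripts differed too. Xist was at 0.644 CPM in T-ALL marrow and 861 CPM in normal marrow, and at 416 CPM in T-ALL spleen and 849 CPM in normal spleen, and the Y-linked Ddx3y was at 93.8, 0, 57.6 and 0 CPM. Cybb lies on the X chromosome. The part of sex and of neutrophil RNA in the oxidase levels was not tested.

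In the spleen, 3 of the 6 oxidase genes were at least 2-fold lower in the T-ALL library than in the normal one, namely Cybb, Ncf1 and Ncf4, and none was 2-fold higher. Over all genes measured in that comparison, 21.4% passed 2-fold, 11.0% lower and 10.3% higher. The median log2 fold of the 6 genes was -0.94, beside -0.08 over all genes measured. In bone marrow none of the 6 passed 2-fold, where 9.04% of all genes did, 8.01% higher and 1.03% lower, and their log2 folds ran from -0.49 to 0.42 with a median of -0.22, beside -0.04 over all genes. Summed over the 6 genes, the level was 3904 CPM in T-ALL marrow and 3823 CPM in normal marrow, against 1717 CPM in T-ALL spleen and 2696 CPM in normal spleen. The oxidase genes thus took 0.390% and 0.382% of the scaled reads of the bone marrow libraries and 0.172% and 0.270% of those of the spleen libraries.

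**Figure D1:**
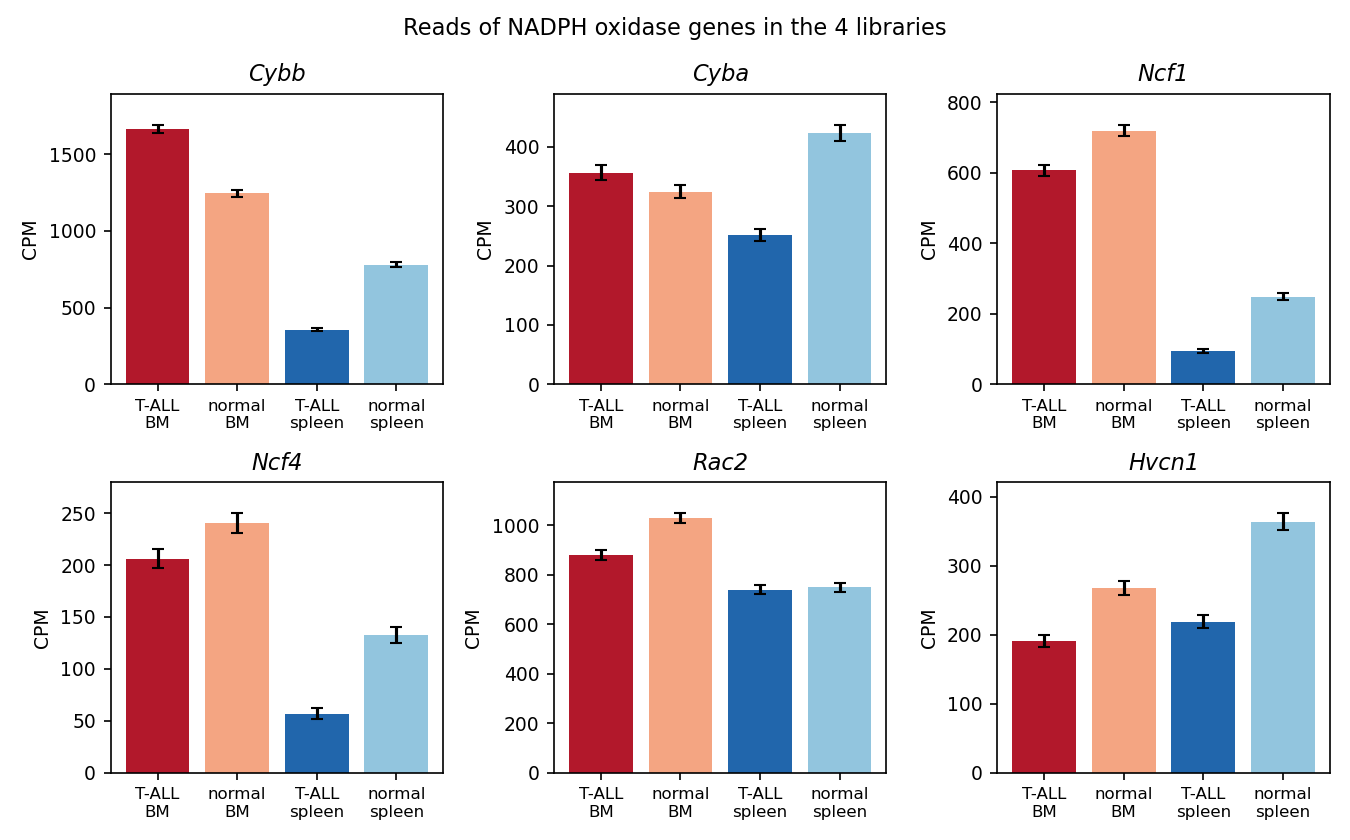
Level of each of the 6 oxidase genes in CPM (y axes, each from 0) in the 4 libraries (x axes), with exact Poisson 95% counting intervals as error bars; each bar is 1 library. Cybb, Cyba, Ncf1 and Ncf4 are lowest in T-ALL spleen, as is Rac2, though within counting error of normal spleen. Rac2 differs least, and Cyba and Hvcn1 are highest in normal spleen.

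Cybb (Gene ID 13058), the catalytic chain of the membrane pair, was at 1665 CPM in T-ALL marrow and 1244 CPM in normal marrow, and at 357 CPM in T-ALL spleen and 780.0 CPM in normal spleen. T-ALL bone marrow was the highest library and T-ALL spleen the lowest, and each step of the order exceeded counting error. In spleen the gene was 2.19-fold lower in the T-ALL library (2.10 to 2.28). In bone marrow the ratio of T-ALL to normal was 1.34 (1.31 to 1.37), under the 2-fold rule. By RPKM Cybb ranked 169th among the genes of the T-ALL bone marrow library and 222nd in normal bone marrow. It ranked 1068th in T-ALL spleen and 362nd in normal spleen.

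Promoters of 3 of the 6 genes were matched by symbol in a RefSeq table of the GRCm38.p6 assembly, those of Cybb, Cyba and Ncf1, each running from 250 bases before to 50 bases after an annotated start. They are all that could be shown, since no promoter was matched for Ncf4, Rac2 or Hvcn1. Whether these sequences bear on the levels was not tested. Capitals mark matches, on either strand, to GAGGAA (the core bound by PU.1, the factor encoded by Spi1), the composite element of PU.1 with an interferon regulatory factor, the interferon-stimulated response element (ISRE) or TTGCNNAA (C/EBP factors). The Cybb window is chrX:9469275-9469574, minus strand:
Cybb: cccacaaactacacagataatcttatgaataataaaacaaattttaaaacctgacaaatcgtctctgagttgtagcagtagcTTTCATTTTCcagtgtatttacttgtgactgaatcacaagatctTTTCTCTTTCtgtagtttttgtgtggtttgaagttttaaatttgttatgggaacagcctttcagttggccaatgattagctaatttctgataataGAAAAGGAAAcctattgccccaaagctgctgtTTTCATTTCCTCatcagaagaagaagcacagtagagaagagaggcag
The Ncf1 window is chr5:134229576-134229875, minus strand:
Ncf1: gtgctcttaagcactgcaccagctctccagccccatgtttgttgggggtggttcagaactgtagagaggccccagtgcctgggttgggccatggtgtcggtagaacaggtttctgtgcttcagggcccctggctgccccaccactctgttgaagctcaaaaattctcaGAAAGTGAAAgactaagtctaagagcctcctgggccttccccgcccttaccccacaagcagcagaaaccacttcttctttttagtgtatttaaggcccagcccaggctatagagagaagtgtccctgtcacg
The Cyba window is chr8:122432891-122433190, minus strand:
Cyba: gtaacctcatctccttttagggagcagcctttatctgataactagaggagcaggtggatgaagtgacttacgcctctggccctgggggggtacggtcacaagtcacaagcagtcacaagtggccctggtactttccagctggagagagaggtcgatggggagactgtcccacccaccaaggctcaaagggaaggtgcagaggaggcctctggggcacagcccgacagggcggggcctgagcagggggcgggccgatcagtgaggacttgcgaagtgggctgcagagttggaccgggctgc
Counted from the start, with the start base as 0, the Cybb window holds the ISRE from -29 to -20 on the strand of the gene and from -168 to -159 and -124 to -115 on the opposite strand. It also holds, on the opposite strand, the composite element from 3 to 12 and GAGGAA from 9 to 14, which overlap. The Ncf1 window holds 1 match, the ISRE from -82 to -73, and the letters searched for were not found in the Cyba window. Among 32851 such windows, 28.3% hold GAGGAA, 2.72% the composite element, 3.44% the ISRE and 10.8% TTGCNNAA. These are matches of letters only, and no binding was measured.

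Cyba (Gene ID 13057), the small chain that stabilises the Cybb protein, was at 357 CPM in T-ALL marrow and 324 CPM in normal marrow, and at 251 CPM in T-ALL spleen and 423.5 CPM in normal spleen. Its order differed from that of Cybb, since normal spleen and not T-ALL bone marrow was the highest library. The ratio of T-ALL to normal was 1.10 (1.05 to 1.15) in bone marrow and 0.594 (0.563 to 0.625) in spleen, both under the 2-fold rule. Per length, Cyba was the most abundant of the 6 transcripts in every library, at 463 RPKM in T-ALL bone marrow, 426 in normal bone marrow, 332 in T-ALL spleen and 552 in normal spleen.

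The transcripts of the membrane pair were therefore in unequal proportion. Cybb stood at 0.751 of the RPKM of Cyba (0.723 to 0.780) in T-ALL bone marrow and 0.617 (0.593 to 0.642) in normal bone marrow. In spleen it stood at 0.228 (0.216 to 0.241) in the T-ALL library and 0.296 (0.285 to 0.308) in the normal one. The ratio was lower in both spleen libraries than in both bone marrow libraries, with no overlap of the counting intervals. The assembly factor of this pair, Cybc1, which the files list under its older symbol BC017643, was at 120 CPM in T-ALL marrow and 102 CPM in normal marrow, and at 90.4 CPM in T-ALL spleen and 160 CPM in normal spleen. Its order over the 4 libraries was the order of Cyba, with a T-ALL to normal ratio of 1.18 (1.08 to 1.28) in bone marrow and 0.566 (0.519 to 0.616) in spleen.

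Of the cytosolic subunits, Ncf1 (Gene ID 17969), the organiser that is phosphorylated on activation, showed the widest range of the 6 genes. It was at 607 CPM in T-ALL marrow and 719 CPM in normal marrow, and at 94.2 CPM in T-ALL spleen and 248 CPM in normal spleen. The gene was 2.63-fold lower in T-ALL spleen than in normal spleen (2.43 to 2.85), and 7.63-fold (7.11 to 8.20) separated its highest library, normal bone marrow, from its lowest, T-ALL spleen. In bone marrow the T-ALL to normal ratio was 0.844 (0.815 to 0.874), opposite in direction to that of Cybb.

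Ncf4 (Gene ID 17972), whose PX domain binds a phosphoinositide of the phagosome membrane, followed the order of Ncf1 over the 4 libraries. It was at 206 CPM in T-ALL marrow and 240.0 CPM in normal marrow, and at 56.8 CPM in T-ALL spleen and 132 CPM in normal spleen. In spleen it was 2.33-fold lower in the T-ALL library (2.10 to 2.58), and in bone marrow the ratio of T-ALL to normal was 0.858 (0.807 to 0.911).

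Per length, Ncf1 and Ncf4 were nearer to equal in both spleen libraries than in both bone marrow libraries. The ratio of Ncf1 to Ncf4 in RPKM was 1.59 (1.51 to 1.67) in T-ALL bone marrow and 1.61 (1.54 to 1.69) in normal bone marrow, against 0.891 (0.799 to 0.995) in T-ALL spleen and 1.01 (0.940 to 1.08) in normal spleen. For Ncf1 to Cybb it was 0.637 (0.617 to 0.656) in T-ALL bone marrow, 1.01 (0.980 to 1.04) in normal bone marrow, 0.461 (0.428 to 0.497) in T-ALL spleen and 0.556 (0.529 to 0.583) in normal spleen. Normal bone marrow, the library with the highest neutrophil precursor sum, was the one with the most Ncf1 transcript per Cybb transcript. The part of neutrophil RNA in these ratios was not tested.

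**Figure D2:**
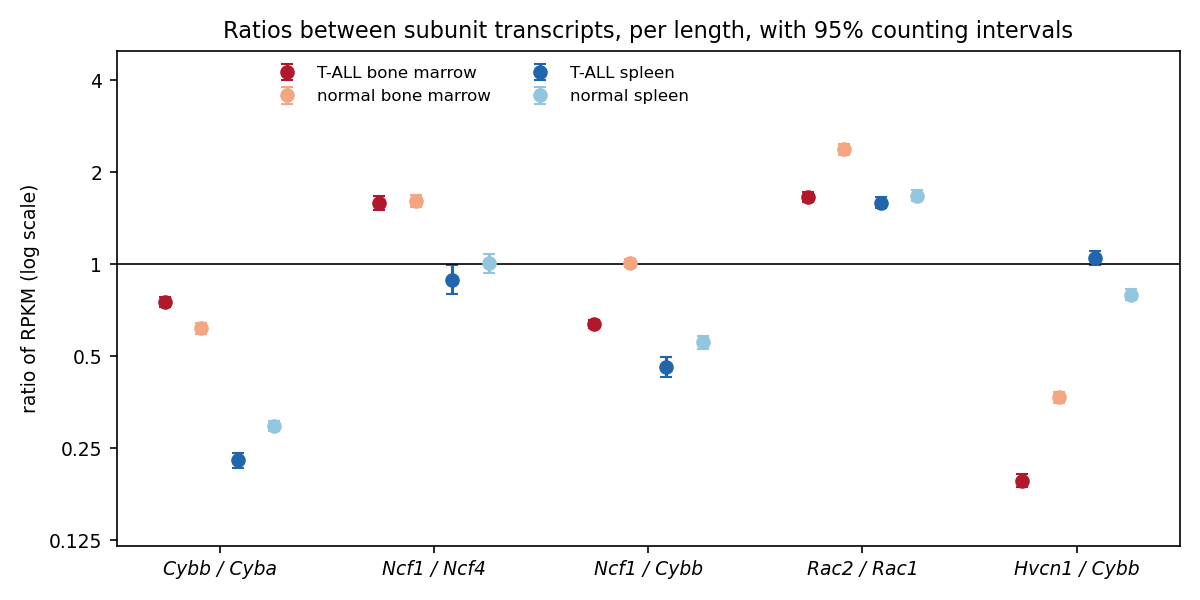
Ratios of RPKM between oxidase transcripts (y axis, log scale; x axis, the pair compared) in each library (colours), with exact binomial 95% counting intervals. Cybb over Cyba is 0.751 and 0.617 in the T-ALL and normal bone marrow libraries and 0.228 and 0.296 in the T-ALL and normal spleen libraries, while Hvcn1 over Cybb runs the other way.

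Rac2 (Gene ID 19354), the GTPase of blood cells that switches on the assembled oxidase, varied least of the 6 genes. It was at 880 CPM in T-ALL marrow and 1028 CPM in normal marrow, and at 739 CPM in T-ALL spleen and 749 CPM in normal spleen. The spleen libraries did not differ beyond counting error, with a T-ALL to normal ratio of 0.988 (0.955 to 1.02), and the bone marrow ratio was 0.856 (0.831 to 0.881). The range from the highest to the lowest library was 1.39-fold (1.35 to 1.43). Rac1, the widely expressed relative that macrophages also use, was at 398 CPM in T-ALL marrow and 325 CPM in normal marrow, and at 350.1 CPM in T-ALL spleen and 336 CPM in normal spleen. Rac2 exceeded Rac1 per length in every library, with ratios of 1.66 (1.60 to 1.73) in T-ALL bone marrow, 2.38 (2.29 to 2.48) in normal bone marrow, 1.59 (1.52 to 1.66) in T-ALL spleen and 1.68 (1.61 to 1.75) in normal spleen. T cells, B cells and neutrophils also use Rac2. The 10 T cell markers summed to 3364 CPM in T-ALL spleen and 897 CPM in normal spleen. Of them 9 were 2-fold higher in T-ALL spleen, beside 10.3% of all genes measured. The part of T cells in the level of Rac2 was not tested.

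Hvcn1 (Gene ID 74096), the proton channel, had an order of its own, highest in normal spleen and lowest in T-ALL bone marrow. It was at 191 CPM in T-ALL marrow and 268 CPM in normal marrow, and at 219 CPM in T-ALL spleen and 363 CPM in normal spleen. The ratio of T-ALL to normal was 0.712 (0.670 to 0.757) in bone marrow and 0.603 (0.570 to 0.638) in spleen, and neither passed the 2-fold rule. The bone marrow ratio was the lowest of the 6 genes. In RPKM it stood at 0.196 of Cybb (0.186 to 0.205) in T-ALL bone marrow and 0.367 (0.352 to 0.383) in normal bone marrow, and at 1.05 (0.992 to 1.11) in T-ALL spleen and 0.795 (0.763 to 0.829) in normal spleen. Hvcn1 is also expressed by B cells. The 9 B cell markers summed to 432 CPM in T-ALL bone marrow, 367 CPM in normal bone marrow, 1669 CPM in T-ALL spleen and 3354 CPM in normal spleen. In T-ALL spleen 4 of them were 2-fold lower, beside 11.0% of all genes measured, and none was higher. The B cell markers Ms4a1 and Cd79a had reads in all 4 libraries, and their part in the level of Hvcn1 was not tested.

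**Figure D3:**
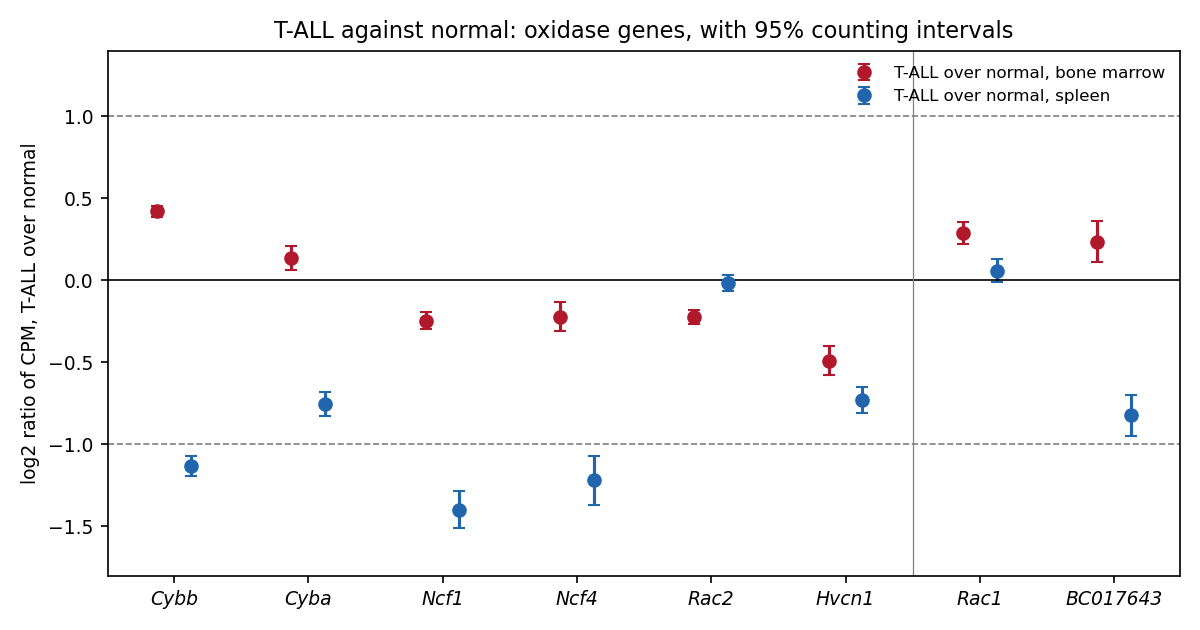
Log2 ratio of CPM, T-ALL over normal (y axis), in bone marrow and in spleen for the 6 oxidase genes and, right of the vertical line, Rac1 and BC017643 (x axis), with exact binomial 95% counting intervals; dashed lines mark 2-fold. Cybb, Ncf1 and Ncf4 lie below the lower line in spleen, and all 8 lie between the lines in bone marrow.

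The genes were set beside each other by the root mean square difference of their log2(CPM + 1) profiles, each centred on its mean over the 4 libraries. Cybb and Ncf4 were the closest pair of the 6, at 0.23, followed by Cyba and Hvcn1 at 0.29 and Cyba and Rac2 at 0.32. Ncf1 and Hvcn1 were the farthest apart, at 1.24. With 4 libraries this describes these libraries only.

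By the same measure the closest of 9443 other genes were named for each member. For Cybb they were Gab1, Gcnt2 and Trip6, at 0.04 to 0.09, and for Cyba they were Mfap3, Zdhhc12 and Rabac1, at 0.03 to 0.04. Ncf1 was nearest to Cebpa, a transcription factor of the granulocyte and monocyte lineage, at 0.10, with Ifitm1 and Wls next. Cebpa was at 155 CPM in T-ALL bone marrow, 168 CPM in normal bone marrow, 20.9 CPM in T-ALL spleen and 52.0 CPM in normal spleen. Ncf4 was nearest to Calcrl, Cercam and Adcy9, Rac2 to Ing1, Map2k4 and Hic2, and Hvcn1 to Fam3c, Il7r and Abcb4. Several of these, such as Gab1 at 2.06 to 12.3 CPM, had few reads.

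The oxidase genes were set beside macrophage genes. In bone marrow, all 10 listed macrophage markers were 2-fold higher in T-ALL, beside 8.01% of all genes, with a median log2 fold of 3.04. Each of the 10 had a larger log2 fold than each of the 6 oxidase genes. Per read of Csf1r, which encodes a growth factor receptor of macrophages, there were 1.76 reads of Cybb in T-ALL bone marrow and 9.34 in normal bone marrow, against 0.251 in T-ALL spleen and 0.323 in normal spleen. For Ncf1 the same count was 0.641, 5.40, 0.0663 and 0.103. In bone marrow Csf1r was at 947 CPM in T-ALL and 133 CPM in normal, and Mpo at 2531 and 9900.0 CPM. The part of neutrophil RNA in these counts was not tested. In spleen 3 of the 10 macrophage markers were 2-fold lower in the T-ALL library, beside 11.0% of all genes, and none was higher. Their median log2 fold was -0.72. There the log2 folds of Cyba, at -0.75, and Hvcn1, at -0.73, were next to that median, those of Cybb, Ncf4 and Ncf1, at -1.13, -1.20 and -1.39, were below it, and that of Rac2, at -0.02, was above it.

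**Figure D4:**
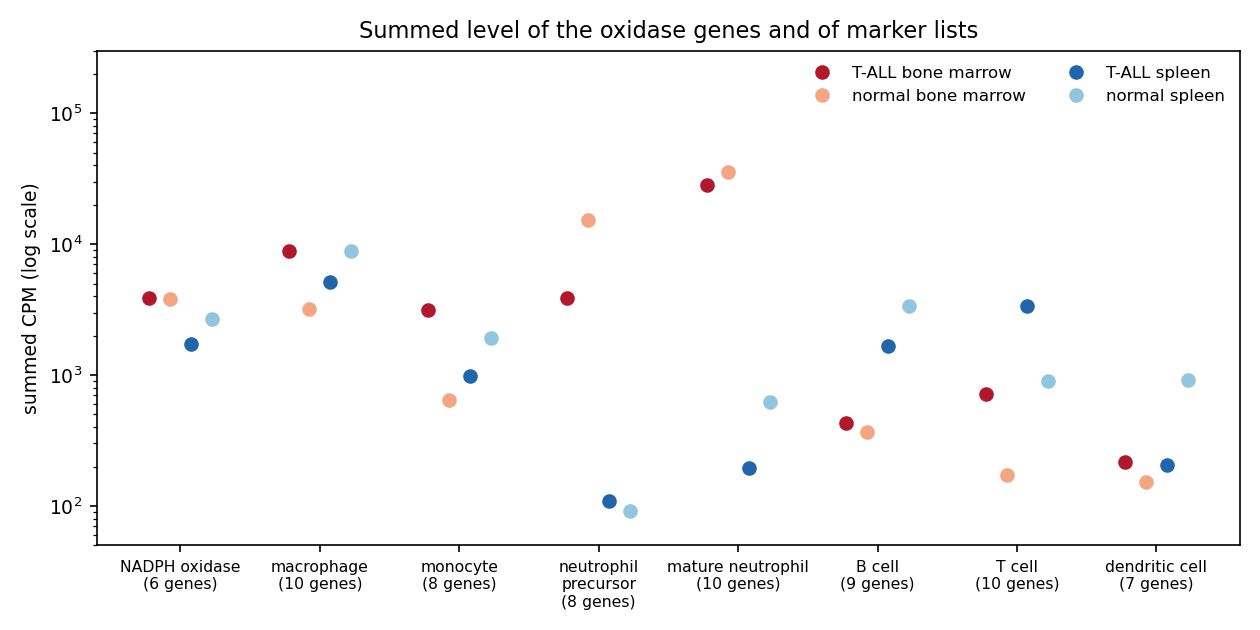
Summed CPM (y axis, log scale) of the 6 oxidase genes and of 7 lists of cell type markers (x axis) in each library (colours); each point is 1 library. The oxidase sum spans 1717 to 3904 CPM, while the neutrophil precursor sum spans 91.9 to 15304 CPM and is far lower in both spleen libraries than in both bone marrow libraries.

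Markers of other cells that could carry oxidase transcripts differed with condition as well. Of all genes measured, 8.01% were 2-fold higher and 1.03% lower in T-ALL bone marrow. In T-ALL spleen 10.3% were higher and 11.0% lower. Of the 8 monocyte markers, 7 were 2-fold higher in T-ALL bone marrow and none lower, and in spleen 2 were higher and 3 lower. All 8 neutrophil precursor markers were 2-fold lower in T-ALL bone marrow, where 3 of 10 mature neutrophil markers measured were higher and none lower. In spleen 6 of 7 mature neutrophil markers measured were lower in the T-ALL library, and all 7 dendritic cell markers were lower, with summed levels of 205 CPM in T-ALL spleen and 911 CPM in normal spleen. Eosinophil, basophil and mast cell markers summed to 1861 CPM in T-ALL marrow and 2985 CPM in normal marrow, and to 110 CPM in T-ALL spleen and 384 CPM in normal spleen. The part of each of these lists in the oxidase levels was not tested.

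Between organs, 3 of the 6 oxidase genes were 2-fold lower in spleen than in bone marrow among the T-ALL libraries and 1 among the normal libraries, and none was higher. Among all genes measured, 16.5% passed in T-ALL, 11.0% lower and 5.44% higher, and 30.2% passed in normal mice, 14.0% lower and 16.1% higher. In T-ALL, Cybb was 4.67-fold lower in spleen (4.50 to 4.85), Ncf1 was 6.44-fold lower (6.00 to 6.93) and Ncf4 was 3.62-fold lower (3.29 to 4.0). In normal mice Ncf1 alone passed, at 2.90-fold lower in spleen (2.76 to 3.04), and the spleen to bone marrow ratios of Cybb and Ncf4 were 0.627 (0.609 to 0.646) and 0.551 (0.513 to 0.591). Cyba had a ratio of 0.705 (0.668 to 0.744) in T-ALL and 1.31 (1.25 to 1.37) in normal mice, and Hvcn1 had 1.15 (1.08 to 1.23) in T-ALL and 1.36 (1.29 to 1.43) in normal mice. Of the neutrophil precursor markers, 7 of 8 in T-ALL and 8 of 8 in normal mice were 2-fold lower in spleen, and of the 10 macrophage markers 1 in T-ALL and 9 in normal mice were higher, and 1 in each was lower. The lower one was Lyz2, a lysozyme gene that neutrophils also express, at 22.8-fold lower in spleen in T-ALL and 2.72-fold lower in normal mice. Their part in the organ differences was not tested, and these comparisons use the same 4 libraries as the T-ALL comparisons.

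The oxidase homologues of other tissues and their partners had few reads or none. Nox3, Nox4 and Duox1 had no line in any of the 4 files, and Nox1, Duox2, Duoxa1 and Duoxa2 had at most 1 read in a library. Noxa1 had at most 5 reads, and Noxo1, the organiser of the Nox1 enzyme, had 18 reads in T-ALL bone marrow, 24 in normal bone marrow, 19 in T-ALL spleen and 18 in normal spleen. A count of 0 allows up to 3 reads. Rac1, BC017643 and Rap1a, a small GTPase found with the membrane pair, reached 10 CPM and were not called in the T-ALL comparison of either organ.

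Of 12 receptors that set off the oxidase, 7 were 2-fold higher in T-ALL bone marrow, beside 8.01% of all genes measured. None was lower, and the median log2 fold was 1.38. In the same comparison the median was 3.04 for macrophage markers, 2.76 for monocyte markers and -1.86 for neutrophil precursor markers. The part of these cells in the receptor levels was not tested. Fpr1, a receptor for formylated peptides of bacteria, was at 41.2 CPM in T-ALL marrow and 1.93 CPM in normal marrow. The Fc receptors Fcgr1 and Fcgr4 stood at ratios of 6.90 (5.57 to 8.64) and 6.44 (5.72 to 7.29) between T-ALL and normal bone marrow, and Clec7a, the receptor for fungal glucan, at 6.55 (5.79 to 7.44). In spleen 4 of 11 measured were lower in the T-ALL library, beside 11.0% of all genes, and none higher, namely Itgam, Fcgr1, Tlr4 and Fcgr3. Itgam, a chain of the complement receptor, was 2.76-fold lower there (2.54 to 3.01), and Fcgr1 was 2.50-fold lower (2.18 to 2.87).

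Of the kinases, lipid kinases and regulators of Rac that act on the oxidase, 4 of 25 were 2-fold higher in T-ALL bone marrow, beside 8.01% of all genes, while none was 2-fold lower, and the median log2 fold was 0.01. They were Fgr and Lyn, kinases of the Src family, at 2.66-fold (2.49 to 2.84) and 2.26-fold (2.14 to 2.39), the Rac exchange factor Prex1 at 2.05-fold (1.94 to 2.17) and the protein kinase Prkcd at 2.02-fold (1.92 to 2.13). In spleen 3 of 25 were lower in the T-ALL library, a share near the 11.0% of all genes measured, and none was higher, with a median of -0.71. These were Pak1, a kinase activated by Rac, at 4.14-fold (3.58 to 4.80), the phospholipase Plcg2 at 2.36-fold (2.22 to 2.52) and the lipid kinase Pik3cd at 2.01-fold (1.92 to 2.10).

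Among 7 transcription factors known to act on oxidase genes, Spi1, which encodes PU.1 and which the files list under its older symbol Sfpi1, was at 316 CPM in T-ALL marrow and 251 CPM in normal marrow, and at 139 CPM in T-ALL spleen and 306 CPM in normal spleen. It was 2.21-fold lower in T-ALL spleen (2.07 to 2.36), beside 2.19-fold for Cybb. The part of PU.1 and of other cells in the level of Cybb was not tested. Per read of Spi1 there were 5.27 reads of Cybb in T-ALL bone marrow and 4.97 in normal bone marrow, and 2.57 in T-ALL spleen and 2.55 in normal spleen. Other members differed more between T-ALL and normal. There were 1.92 reads of Ncf1 per read of Spi1 in T-ALL bone marrow and 2.87 in normal bone marrow, 0.603 reads of Hvcn1 in T-ALL bone marrow and 1.07 in normal bone marrow, and 5.34 reads of Rac2 in T-ALL spleen and 2.44 in normal spleen. Irf8, an interferon regulatory factor of the myeloid lineage, was also lower in T-ALL spleen, 2.12-fold (2.01 to 2.24), and was at 230 CPM in T-ALL marrow and 139 CPM in normal marrow. In bone marrow Cebpb was 4.18-fold higher (3.83 to 4.56) and Cebpe, a factor of late neutrophil maturation that also stands in the neutrophil precursor list, was 2.04-fold lower (1.88 to 2.20) in the T-ALL library.

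Of the genes that dispose of superoxide and peroxide, 18 were measured in the spleen comparison. Among them, 4 were 2-fold higher in the T-ALL library, beside 10.3% of all genes, and 1 was lower, beside 11.0%. The median log2 fold was 0.27. The thioredoxin reductase Txnrd1 was 2.64-fold higher (2.45 to 2.85), thioredoxin Txn1 2.28-fold (2.12 to 2.44), the peroxiredoxin Prdx2 2.10-fold (1.94 to 2.28) and the mitochondrial superoxide dismutase Sod2 2.09-fold (1.87 to 2.35). Hmox1, the haem-degrading enzyme, was 2.64-fold lower in T-ALL spleen (2.57 to 2.72). In bone marrow Hmox1 was 9.19-fold higher in T-ALL (8.41 to 10.1). It was the only 1 of 19 measured to pass there, where 9.04% of all genes passed and 8.01% were higher. The same spleen libraries differed in T cell markers, and the part of those cells was not tested. None of the 6 measured genes of NADPH supply passed 2-fold in either organ's T-ALL comparison. The shares of all genes that passed were 9.04% in bone marrow and 21.4% in spleen. Between organs, 4 of the 6 supply genes were lower in spleen in T-ALL, beside 11.0% of all genes, namely G6pdx, Idh1, Pgd and Nadk. In normal mice 3 were lower, beside 14.0% of all genes, namely Pgd, Tkt and G6pdx. G6pdx, which encodes the first enzyme of the pentose phosphate pathway, was 2.90-fold lower in spleen in T-ALL (2.70 to 3.12).

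**Figure D5:**
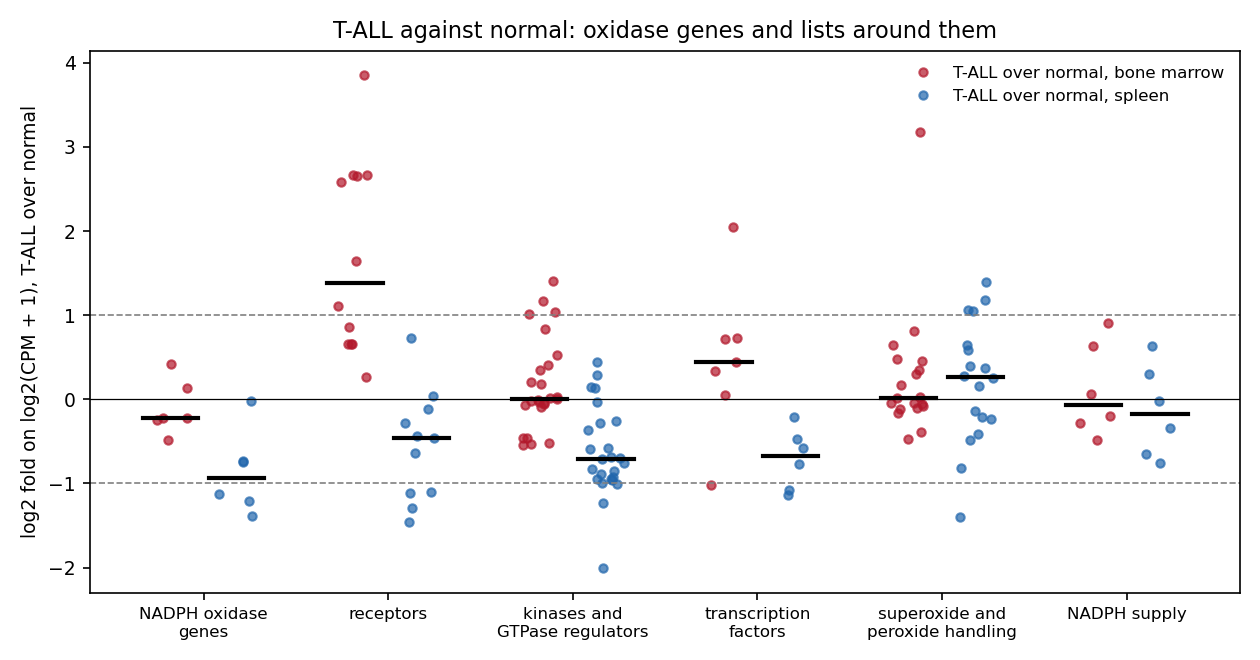
Log2 fold of T-ALL over normal on log2(CPM + 1) (y axis) in bone marrow and in spleen for the 6 oxidase genes and for lists of genes around them (x axis); each point is a gene at 10 CPM or more in either library, black bars are medians and dashed lines mark 2-fold. In bone marrow the receptors have a median of 1.38 while the oxidase genes have -0.22, and in spleen the oxidase genes have -0.94.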

How the data were processed

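RNA of sorted macrophages was sequenced in 4 libraries, 1 per group, with groups taken from the sample titles. Extraction used a Qiagen kit and libraries followed Illumina's usual procedure, per the labels' protocols. The sources used here name no sort markers, aligner, counting rule, genome build or strand setting. Per the file headers, the deposited tables give counts of uniquely mapped reads per gene, the gene length, the percent of that length covered, and RPKM scaled by that length and the total; genes without a read have no line and were set to 0. Counts summed to each header total, and the deposited RPKM was recomputed to within 3.1e-06. As deposited, 23 symbols appear as dates, and these were restored by Gene ID from a RefSeq table (16951 of 17008 IDs matched).

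CPM was computed on TMM-scaled totals (edgeR 4.0.16, R 4.3.3; factors 0.991 to 1.01), and intervals with scipy 1.17.1 under Python 3.11.15 (tables: numpy 2.4.6, pandas 2.3.3; plots: matplotlib 3.10.9). No model was fitted, since each group has 1 library. The size rule is 2-fold with a pseudocount of 1 CPM, which understates folds of low genes, and a minimum of 10 CPM. It was run on simulated counts with counting error only and planted changes well beyond 2-fold. That run says nothing of changes near 2-fold or of the spread between animals. Intervals are exact 95% ones (binomial for ratios, Poisson for levels); reads copied by PCR are not independent, so they cover counting error only, and the floor for 0 reads is 3 reads. Reads shared by near-identical or overlapping genes are uncertain. The alternatives were total-count and DESeq2 1.42.0 scaling, TMM without genes of other cells, other pseudocounts, minimums and thresholds, and RPKM. The members and lists were chosen with earlier results of these data known. Named genes are the 6 members, Rac1, BC017643, Spi1, Irf8, up to 4 called genes per pathway list and T-ALL comparison with the largest log2 fold, defining markers (the first 3 of each cell list) and the 3 nearest patterns per member, leaving out predicted and clone-named genes. The NADPH supply genes of the organ comparison, Rap1a, Lyz2, Xist, Ddx3y and the remaining oxidase homologues were named after their values were seen. Some items of the lists are not reported here.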

Additional observations from a re-analysis of the deposited data

Results flagged for a closer look

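Cybb had opposite directions in the 2 organs, with a ratio of T-ALL to normal above 1 in bone marrow and below 1 in spleen, each beyond counting error. Its log2 fold was -1.13 in spleen and 0.42 in bone marrow, a difference of -1.55. Cyba did the same, with -0.75 in spleen and 0.14 in bone marrow, a difference of -0.89. With 1 library per group these differences between organs were not tested. The bone marrow ratios of both genes were under the 2-fold rule. How many of all genes moved in opposite directions was not counted. Outside the 6 genes, BC017643 had -0.82 in spleen and 0.23 in bone marrow.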

How the results depend on the processing

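The 6 settings that recompute a fold (3 scalings, 2 pseudocounts, RPKM) left 142 of 144 log2 folds of the 6 genes within counting error; minimums and thresholds leave the fold itself as it is. The other 2 were spleen over bone marrow in T-ALL with median-of-ratios scaling, -2.17 for Cybb and -0.20 for Rac2. The largest shift was 0.0688, and only Rac2 in spleen changed sign, between -0.02 and 0.03, inside counting error. At 1.5-fold 5 of 6 oxidase genes passed in spleen, beside 44.0% of all genes, 3 in the normal organ comparison, beside 49.1%, and 3 in the T-ALL organ comparison, beside 33.2%. At 4-fold 0 passed in spleen or the normal organ comparison, beside 3.75% and 13.2%, and 2 in the T-ALL organ comparison, beside 6.25%. In bone marrow 0 passed at either, beside 21.2% and 2.88%. The macrophage list median was also subtracted from each log2 fold, a setting added once the data had been seen. Then 6 oxidase genes were lower in bone marrow and 0 passed in spleen. In the normal organ comparison 6 were lower, and in the T-ALL organ comparison 4. The subtracted medians were 3.04, -0.72, 4.28 and 0.63 in that order, beside all-gene medians of -0.04, -0.08, -0.04 and 0.01. Subtracting a large median lowers every gene alike, and the share of all genes called was not counted. These counts therefore show nothing particular to the oxidase genes.

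Over all genes, T-ALL against normal gave 878 calls in bone marrow (1326 with no minimum, 466 at 50 CPM, 2058 at 1.5-fold, 280 at 4-fold) and 2088 in spleen (1171 at 50 CPM, 4299 at 1.5-fold, 367 at 4-fold). Spleen against bone marrow gave 1622 in T-ALL (2460 with no minimum, 859 at 50 CPM, 3268 at 1.5-fold, 616 at 4-fold) and 3039 in normal mice (1760 at 50 CPM, 4948 at 1.5-fold, 1330 at 4-fold). No paired analysis was possible because each group has 1 library. The depth limits genes of few reads, and the spread between animals is unknown.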
